A study of Mus musculus with 37 samples.

Results

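Ribosome-bound RNA of the mediastinal lymph node, which drains the lung, was compared with that of the inguinal lymph node, which drains skin. The comparison used the 3 mediastinal and the 3 inguinal libraries, 6 of the 37 in the deposited table, and all genes of that table. Of its 56351 genes, 19642 had enough counts to be tested. RiboTag mice carry an Rpl22 allele that gains a haemagglutinin tag after Cre recombination (Rpl22HA), and precipitating the tag brings down ribosomes of the Cre-expressing cells together with their mRNA. Every mouse behind these libraries was labelled homozygous for the CD169 Cre knock-in and for Rpl22HA, controls without Cre were not analysed here, and no treatment, age or sex was given. CD169 is the product of Siglec1, the locus that carries the Cre on both alleles. The label names CD169 macrophages as the cell type, while the study's text says that the allele was activated in all tissues. The isotype control is a single precipitation from jejunal node with a control antibody.

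Lymph arriving at a node passes sinuses lined by CD169-bearing macrophages, which take up particles, dead cells and antigen. Behind them, reticular fibroblasts and lymphatic endothelium lay down chemokines that place B and T cells, and high endothelial venules admit lymphocytes from blood. Fibroblasts of a body region keep the Hox code of the place where they arose, so stroma from the chest and from the trunk wall can be told apart by such genes.

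The mediastinal libraries were deeper. They held 54338851, 41239749 and 69138880 counts, against 3087112, 3286082 and 16823748 in inguinal libraries 1, 2 and 3. Levels are given as CPM, counts scaled to a TMM-adjusted library total of 1000000. On that scale 3 counts corresponded to 0.0354 to 0.0609 CPM in the mediastinal libraries and to 1.21, 1.31 and 0.188 CPM in the inguinal ones. Such floors describe counting error alone. The nuclear RNA Malat1 stood at 195260, 139030 and 42400 CPM in inguinal libraries 1, 2 and 3, at 5364, 4164 and 2606 CPM in the mediastinal ones and at 266100 CPM in the isotype control. Olfactory and vomeronasal receptor genes, best known from sensory neurons of the nose, together took 8912, 6811 and 4413 CPM in the inguinal libraries and 1284, 811.8 and 778 CPM in the mediastinal ones. The inguinal libraries thus held more of what the isotype control also held, most of all libraries 1 and 2, and its part in the results below was not tested. Transcripts of the Y chromosome gene Ddx3y were high in inguinal library 1 (33.1 CPM) and mediastinal library 3 (67.9 CPM) and lay between 0.606 and 1.38 CPM in the other 4, so each node had 1 such library. Nothing in the labels says that libraries of one node came from separate mice, so p-values measure the spread between these libraries, which may be technical.

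Of the genes tested, 5818 (29.6%) were higher in the mediastinal node and 5630 (28.7%) lower, at an adjusted p under 0.05 in edgeR's quasi-likelihood test with Benjamini-Hochberg adjustment over all 19642 genes. In either direction 58.3% were called, and for 68.7% the 3 libraries of one node did not overlap those of the other, with the mediastinal node above for 37.6% and below for 31.1%. The median log2 fold change, mediastinal minus inguinal, was 0.115. Protein-coding genes made up 95.4% of the higher genes and 50.9% of the lower ones. The isotype control reached the inguinal mean for 39.8% of the lower genes, 7.39% of the higher genes and 18.8% of all genes. Of 467 tested olfactory and vomeronasal receptor genes, a group chosen after its values were seen, 359 were lower, 1 was higher, and the median was -2.24. When only protein-coding genes other than these receptors were scaled and tested, their log2 fold changes moved by a median of -0.475, and 3685 genes were higher against 3632 lower, in place of 5547 higher and 2507 lower of these genes. In the main fit the 14330 of these coding genes tested both ways had a median of 0.598. Most lists below hold coding genes. For them the shares over all genes understate the background of rises and overstate that of falls. Among all higher genes 123 had no count in any inguinal library.

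**Figure D1:**
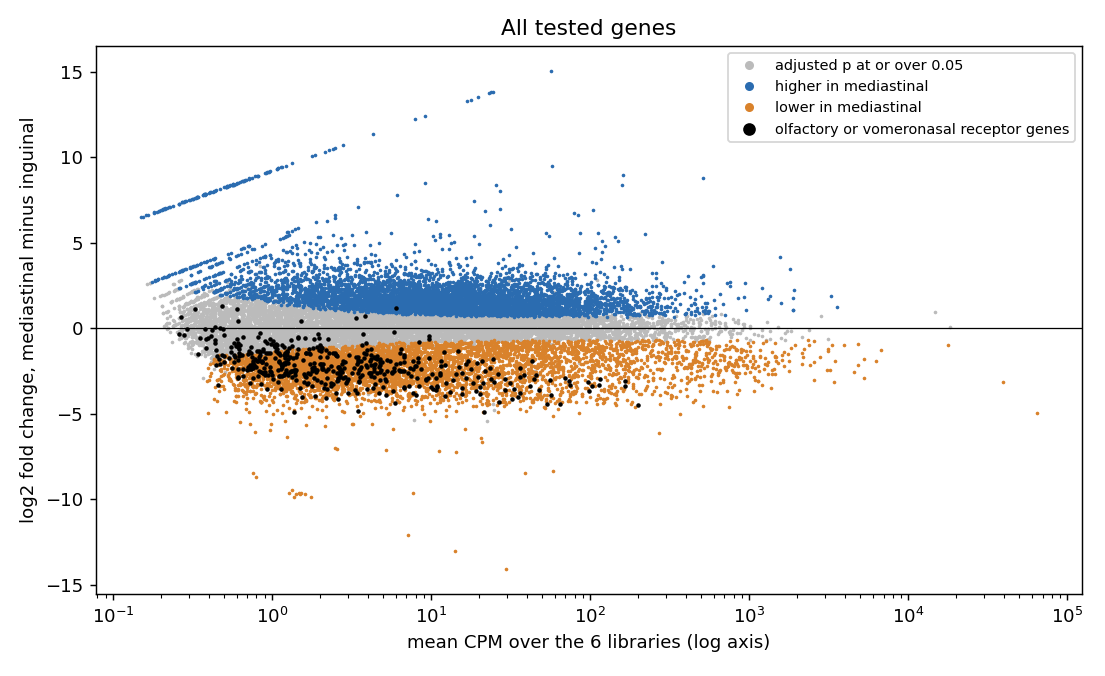
Each point is a tested gene, with its mean CPM over the 6 libraries on a log axis against its log2 fold change, mediastinal minus inguinal. Blue genes were higher and orange genes lower at an adjusted p under 0.05, black points are olfactory and vomeronasal receptor genes, which lie mostly below 0, and the slanted lines at the edges are genes with few or no counts in one node.

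Genes tied to the macrophages for which the mice were made are given first. Siglec1 had 0.404, 0 and 0.126 CPM in the inguinal libraries, which is 3 counts in all, and 0.721, 1.12 and 2.71 CPM in the mediastinal ones. The mediastinal libraries were the higher ones. The ratio of summed counts, each divided by its node's summed TMM-adjusted totals, was 11.4 (95% counting interval 3.85 to 55.4). The inguinal node was thus near the detection floor for this gene, while the mediastinal node held 335 counts. Both Siglec1 alleles carry the Cre in these mice, so its level cannot be read as the amount of CD169 macrophages. Rpl22, the tagged gene, stood at 91.6, 194 and 231 CPM in the inguinal node and at 189, 225 and 192 CPM in the mediastinal node, overlapping ranges with a log2 fold change of 0.23 ± 0.34 (SE, adjusted p = 0.578). Marco, a scavenger receptor of sinus macrophages, was abundant in both, at 1180, 1464 and 1004 CPM in the inguinal and 2439, 2459 and 2701 CPM in the mediastinal libraries. The nodes did not overlap, and Marco rose by 1.06 ± 0.27 (adjusted p = 0.00422). With scaling on coding genes alone the difference in Marco was 0.55 and did not pass (adjusted p = 0.0878). The isotype control had 17 CPM of Marco.

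Sinus and resident macrophage genes were higher in the mediastinal node. Of 23 listed genes 20 were tested, 16 rose and none fell. The median log2 fold change was 2.39, beside 0.115 over all genes and 0.598 over coding genes other than receptors. With scaling on coding genes alone 14 rose, none fell and the median was 1.9. Cd68, a lysosomal glycoprotein of macrophages, had 3.23, 3.05 and 5.65 CPM in the inguinal libraries and 22.2, 54.0 and 34.0 CPM in the mediastinal ones. All mediastinal libraries were above all inguinal ones, a rise of 3.08 ± 0.42 (adjusted p = 7.28e-05). Csf1r, through which CSF1 keeps macrophages alive, went from 12.9, 21.4 and 21.9 CPM to 62.1, 116 and 113 CPM, again without overlap, a rise of 2.36 ± 0.35 (adjusted p = 1.41e-04). Adgre1, which encodes F4/80, a surface marker of medullary macrophages, was at 0, 0 and 0.314 CPM in the inguinal libraries and at 3.23, 6.19 and 7.29 CPM in the mediastinal ones, a rise of 4.61 ± 0.69 (adjusted p = 1.45e-04). Fcna, a ficolin that binds sugars on microbes, had 1.61, 3.05 and 2.14 CPM against 68.6, 128 and 115 CPM. Mediastinal library 1 was the lowest of its node for Cd68, Csf1r, Adgre1 and Fcna, and none of these genes overlapped between the nodes. Cd163, Mrc1, Folr2, Cd5l, Spic, Itgax, Hmox1, Cd209b, Cd209f and Cd209g also rose. Timd4, a receptor for dying cells, had 51.7, 90.3 and 86.8 CPM against 102, 188 and 113 CPM, and its log2 fold change of 0.81 ± 0.34 did not pass (adjusted p = 0.0507). Nr1h3, Itgam and Madcam1 did not pass either, and Vsig4 and Clec4f were too low to test. In bulk libraries more cells of a type and more RNA per cell cannot be told apart.

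Monocyte genes showed the same direction, with 8 of 12 tested higher, beside 29.6% of all genes, none lower and a median of 1.42. With scaling on coding genes alone 6 rose, 1 fell and the median was 0.946. Lyz2, lysozyme of macrophages and neutrophils, was at 198, 336 and 346 CPM in the inguinal node and at 2006, 4317 and 3580 CPM in the mediastinal node. Its libraries did not overlap, and it rose by 3.49 ± 0.36 (adjusted p = 2.64e-05). Ly6c2, a marker of inflammatory monocytes, had 1.21, 0.436 and 1.95 CPM against 13.9, 20.05 and 25.7 CPM, a rise of 3.73 ± 0.45 (adjusted p = 3.74e-05). Of 10 tested genes of alveolar and lung macrophages 6 rose, beside 29.6% of all genes, none fell and the median was 1.56. The rises were Car4, Ear2, Ctsk, Atp6v0d2, and also Marco and Mrc1, which are in the sinus macrophage list too. With scaling on coding genes alone 4 of 10 rose, where 3685 of 14467 genes rose. Car4 was low, at 2.25, 3.31 and 2.95 CPM in the mediastinal libraries. Fabp4, Retnla, Plet1 and Krt79 did not pass, and Chil3, Ear1, Ear6 and Siglecf were too low to test.

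Genes for what macrophages do with their cargo were higher too. All called members of the lysosome list rose, 21 of 26 tested, with a median of 1.60. Ctsd, a lysosomal protease, had 211, 322 and 297 CPM in the inguinal and 697, 998 and 655 CPM in the mediastinal libraries, a rise of 1.501 ± 0.298 (adjusted p = 9.38e-04) without overlap. Of 15 tested genes of iron and haem handling, 12 rose and none fell, with a median of 1.76. Slc40a1, the iron exporter ferroportin, had 1.61, 2.18 and 4.14 CPM against 40.2, 89.5 and 47.6 CPM. Mediastinal library 2 was highest, no library overlapped, and the rise was 4.28 ± 0.45 (adjusted p = 2.64e-05). Hmox1, which degrades haem, had 45.6, 51.5 and 58.1 CPM against 220, 378 and 238 CPM, a rise of 2.42 ± 0.32 (adjusted p = 5.92e-05). Fth1 and Trf, ferritin heavy chain and transferrin, rose by 4.08 ± 0.39 and 4.68 ± 0.38. Hp, haptoglobin, rose by 3.08 ± 0.39. Globin and other red cell genes rose in step, 6 of 6 tested, with Hbb-bs at 28.2, 33.6 and 44.5 CPM in the inguinal and 534, 522 and 542 CPM in the mediastinal libraries. The summed level of the red cell list was 216 to 260.9 CPM in the inguinal node and 1449 to 1532 CPM in the mediastinal node, and its part in the iron result was not tested. Hba-a1 and Hba-a2 are near-identical, so their counts may be shared between them. In the list of lipid uptake and efflux 13 of 19 tested genes rose and none fell, including Apoe (1.88 ± 0.30), Fabp5 (2.96 ± 0.37) and Abcg1 (1.74 ± 0.31).

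**Figure D2:**
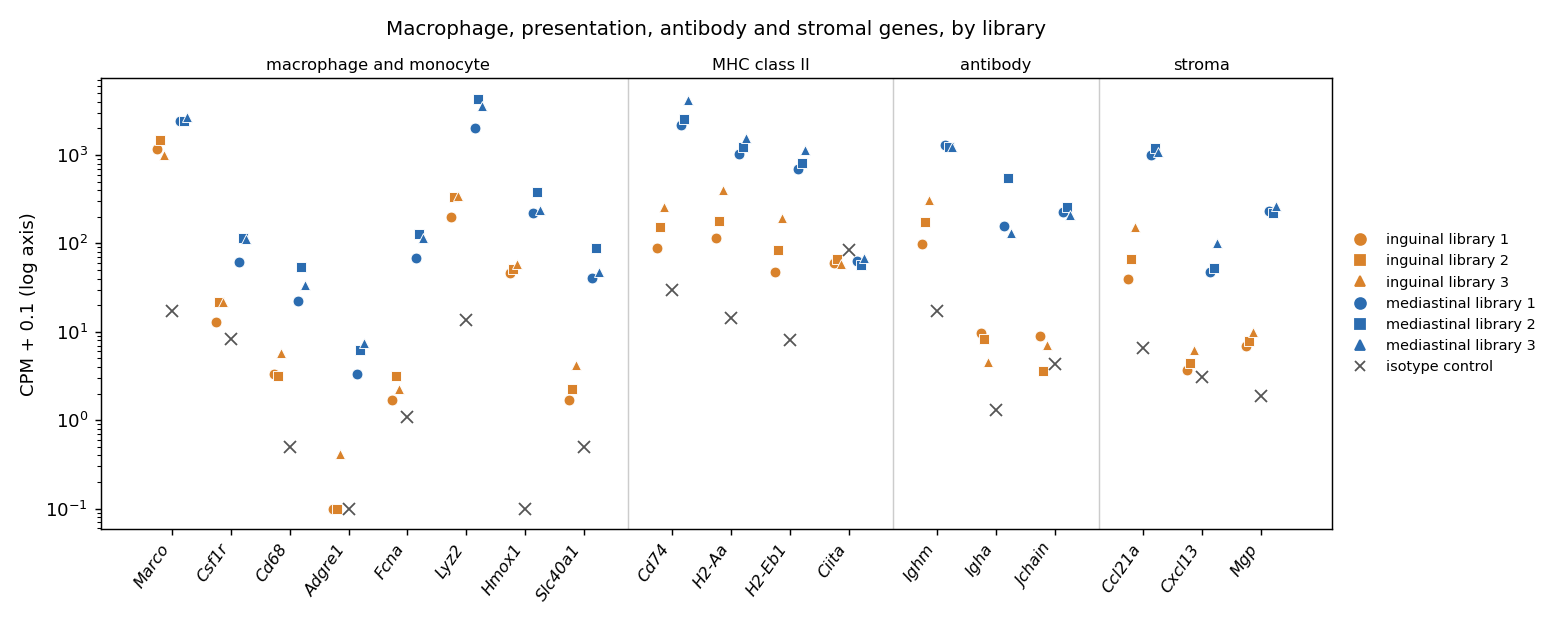
CPM plus 0.1 on a log axis for macrophage and monocyte, MHC class II, antibody and stromal genes in each of the 3 inguinal (orange), 3 mediastinal (blue) and 1 isotype control (cross) libraries. All mediastinal points lie above all inguinal points for each gene drawn except Ciita, whose points overlap.

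Antigen presentation by MHC class II was higher as well. These molecules carry peptides to CD4 T cells, and CIITA switches on their genes through a complex that sits on the X and Y boxes just before each gene's start. Of 15 listed genes, all tested, 10 rose, none fell and the median was 2.17. Of the 15 genes 11 had a promoter in the RefSeq table of GRCm38.p6. The 150 bases before the start are shown for the 4 of them that held both searched motifs. H2-DMa, H2-DMb2, Ifi30 and Ctss rose as well, and their windows did not hold both. Capitals mark TGATTGG, from the Y box, and GCAAC, from the X box, searched on both strands, and were chosen after the sequences were seen.
H2-Aa: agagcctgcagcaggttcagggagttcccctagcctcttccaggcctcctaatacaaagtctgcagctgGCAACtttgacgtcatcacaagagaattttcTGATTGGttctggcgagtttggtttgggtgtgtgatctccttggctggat
H2-Eb1: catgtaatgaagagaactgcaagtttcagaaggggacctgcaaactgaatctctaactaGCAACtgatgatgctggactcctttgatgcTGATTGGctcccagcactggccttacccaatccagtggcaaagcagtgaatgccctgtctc
H2-Oa: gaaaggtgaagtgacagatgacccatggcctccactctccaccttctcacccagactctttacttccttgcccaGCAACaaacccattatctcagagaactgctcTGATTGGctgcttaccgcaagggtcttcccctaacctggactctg
H2-Ob: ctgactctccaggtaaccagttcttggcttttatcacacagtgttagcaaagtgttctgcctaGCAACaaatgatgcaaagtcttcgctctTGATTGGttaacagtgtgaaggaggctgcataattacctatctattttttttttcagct
The windows lie on GRCm38.p6 at chr17:34287824-34287973 (minus strand), chr17:34305717-34305866, chr17:34092229-34092378 and chr17:34238755-34238904 (plus strand). In H2-Aa the GCAAC begins 81 bases and the TGATTGG 50 bases before the start. In H2-Eb1 they begin at 91 and 61 bases, in H2-Oa at 76 and 45, and in H2-Ob at 87 and 59, in the same order. Of all 27025 promoter windows of this length, 6.13% held TGATTGG, 19.8% held GCAAC and 1.26% held both. Because the motifs were chosen from the windows shown, these shares do not test the matches or link them to the rises. A match describes the letters and is no evidence of binding.

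The invariant chain Cd74, which fills the groove of new class II molecules, had 89.6, 152 and 258 CPM in the inguinal libraries and 2183, 2542 and 4213 CPM in the mediastinal ones. Inguinal library 3 was the highest of its node, the nodes did not overlap, and Cd74 rose by 4.16 ± 0.43 (adjusted p = 2.64e-05). H2-Aa, the alpha chain of I-A, had 114, 177 and 407 CPM against 1022, 1242 and 1573 CPM, a rise of 2.45 ± 0.42 (adjusted p = 3.41e-04). H2-Eb1, the beta chain of I-E, had 47.6, 84.7 and 193 CPM against 691, 808 and 1152 CPM, a rise of 3.01 ± 0.45 (adjusted p = 1.40e-04). H2-Ab1 rose by 2.35 ± 0.41, H2-Oa and H2-Ob, which restrain peptide exchange in B cells, rose by 2.38 ± 0.41 and 2.31 ± 0.40, and Ifi30, a thiol reductase of the endosome, rose by 3.63 ± 0.42. Ciita itself stood at 60.1, 67.2 and 58.3 CPM against 62.5, 56.8 and 67.9 CPM, overlapping levels with a log2 fold change of 0.01 ± 0.27 (adjusted p = 0.968). The isotype control held 85 CPM of Ciita, more than any of the 6 libraries, so its level here is not above background. The costimulatory genes Cd80 and Cd86 did not pass, at 0.67 ± 0.32 and 0.26 ± 0.33. Dendritic cell genes rose in 8 of 18 tested, including Ccr7, Fscn1 and Irf8, beside 29.6% of all genes, with none lower and a median of 0.836. With scaling on coding genes alone 5 of 18 rose, near the share of that fit, where 3685 of 14467 genes rose.

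Genes of antibody secretion were higher. Of 17 tested plasma cell genes, 12 rose and 1, Prdm1, fell, with a median of 2.46. Without inguinal library 2 Prdm1, which drives plasma cell formation, differed by -0.76 and did not pass (adjusted p = 0.224). Jchain, which joins IgA and IgM, had 8.88, 3.49 and 7.03 CPM in the inguinal node and 227, 256 and 210 CPM in the mediastinal node, a rise of 5.13 ± 0.38 (adjusted p = 4.78e-06). Igha, the IgA constant region, had 9.69, 8.29 and 4.46 CPM against 157, 554 and 130 CPM. Mediastinal library 2 stood above the others, the nodes did not overlap, and Igha rose by 5.32 ± 0.60 (adjusted p = 2.94e-05). Ighg3 went from 8.07, 15.7 and 5.78 CPM to 342, 273 and 677 CPM, a rise of 5.53 ± 0.50 (adjusted p = 1.78e-05). Constant regions of antibody genes are similar to one another, so reads may be shared among them. The B cell list was divided, with 8 of 14 tested genes higher and 3 lower, beside 29.6% and 28.7% of all genes. Ighm had 97.3, 176 and 311 CPM against 1312, 1225 and 1220 CPM, a rise of 2.68 ± 0.38 (adjusted p = 9.87e-05). Pax5, the factor that fixes B cell identity, went the other way, with 2060, 1618 and 1632 CPM in the inguinal and 626, 482 and 638 CPM in the mediastinal libraries. It fell by 1.61 ± 0.27 (adjusted p = 3.36e-04) without overlap, and the isotype control held 2247 CPM, more than any of the 6 libraries. Ms4a1 and Ebf1, also lower, had isotype levels of 174 and 194 CPM beside inguinal levels of 184 to 332 and 239 to 264 CPM. With scaling on coding genes alone 4 B cell genes were higher and 4 lower. Among 19 tested T cell genes 12 rose, including Trbc2, Cd3g and Cd8a, and Lck, Cd2 and Il7r fell, with a median of 1.44. Without inguinal library 2, Il7r was the 1 of these that still fell, and the isotype control held 215 and 171 CPM of Lck and Il7r.

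The node's scaffold showed more of most genes in the mediastinal libraries. Of 15 tested genes of reticular fibroblasts 11 rose and 1, Il7, fell, with a median of 1.72. The call of Il7 was lost when any 1 inguinal library was left out. Ccl21a, a chemokine that draws T cells and dendritic cells, had 39.5, 66.8 and 155 CPM in the inguinal libraries and 989, 1210 and 1087 CPM in the mediastinal ones, a rise of 3.64 ± 0.44 (adjusted p = 3.76e-05). Ccl21a has near-identical copies, and counts may be shared among them. Cxcl13, which forms B cell follicles, had 3.63, 4.36 and 6.15 CPM against 47.9, 52.3 and 101 CPM, a rise of 3.75 ± 0.41 (adjusted p = 2.70e-05). Neither chemokine overlapped between the nodes. Ccl19, the other T zone chemokine, had 746, 1009 and 1253 CPM against 1150, 988 and 940 CPM, and its log2 fold change was 0.03 ± 0.28 (adjusted p = 0.929). Ccl11, eotaxin-1, which recruits eosinophils, had no count in any inguinal library and 2.39, 2.17 and 6.63 CPM in the mediastinal ones, at least 28.3-fold higher against a floor of 3 counts over the group. Of 27 chemokine ligands tested, 16 rose, beside 29.6% of all genes, and 1 fell. With scaling on coding genes alone 9 of 28 rose, where 3685 of 14467 genes rose, and 1 fell. The one that fell was Cxcl9, which draws activated T cells and answers to interferon gamma, with 314, 314 and 188 CPM in the inguinal and 63.4, 51.5 and 61.1 CPM in the mediastinal libraries. It fell by 2.21 ± 0.31 (adjusted p = 8.93e-05), and the isotype control held 26.8 CPM. Its neighbour in function Cxcl10 rose, from 3.23, 0.436 and 3.64 CPM to 14.7, 18.9 and 54.6 CPM, by 3.39 ± 0.59 (adjusted p = 3.76e-04). In the interferon response list 9 of 30 tested genes were higher, near the 29.6% of all genes. Another 4 were lower, beside 28.7% of all genes, and the median was 0.574.

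Vessel and matrix genes were mostly higher in the mediastinal node. The list of blood endothelium and high endothelial venules had 13 of 16 tested genes higher and none lower, with a median of 1.90. Glycam1, a mucin of high endothelial venules, had 60.9, 135 and 399 CPM in the inguinal and 1588, 1765 and 593 CPM in the mediastinal libraries, a rise of 2.72 ± 0.63 (adjusted p = 0.00376). Inguinal library 3 and mediastinal library 3 lay closest to each other, still without overlap, and against inguinal library 3 alone the difference in Glycam1 was 1.76. In the lymphatic endothelium list 10 of 18 rose, beside 29.6% of all genes. Among them were Lyve1 (2.49 ± 0.35) and Flt4, the receptor of the lymphatic growth factor VEGF-C. Marco and Cd209b, which are in the macrophage list too, were also among them. Pecam1 fell (-1.48 ± 0.29), and Prox1, the factor that makes endothelium lymphatic, did not pass (0.03 ± 0.41). With scaling on coding genes alone 7 of 18 lymphatic genes rose, where 3685 of 14467 genes rose, and 2 fell. Of 18 matrix genes 14 rose and none fell, with a median of 2.15. Mgp, an inhibitor of calcification, had 6.86, 7.85 and 9.86 CPM against 231, 222 and 265 CPM, a rise of 4.83 ± 0.34 (adjusted p = 3.23e-06). Col1a1 did not pass (-0.22 ± 0.34). Smooth muscle genes rose in 6 of 8 tested.

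**Figure D3:**
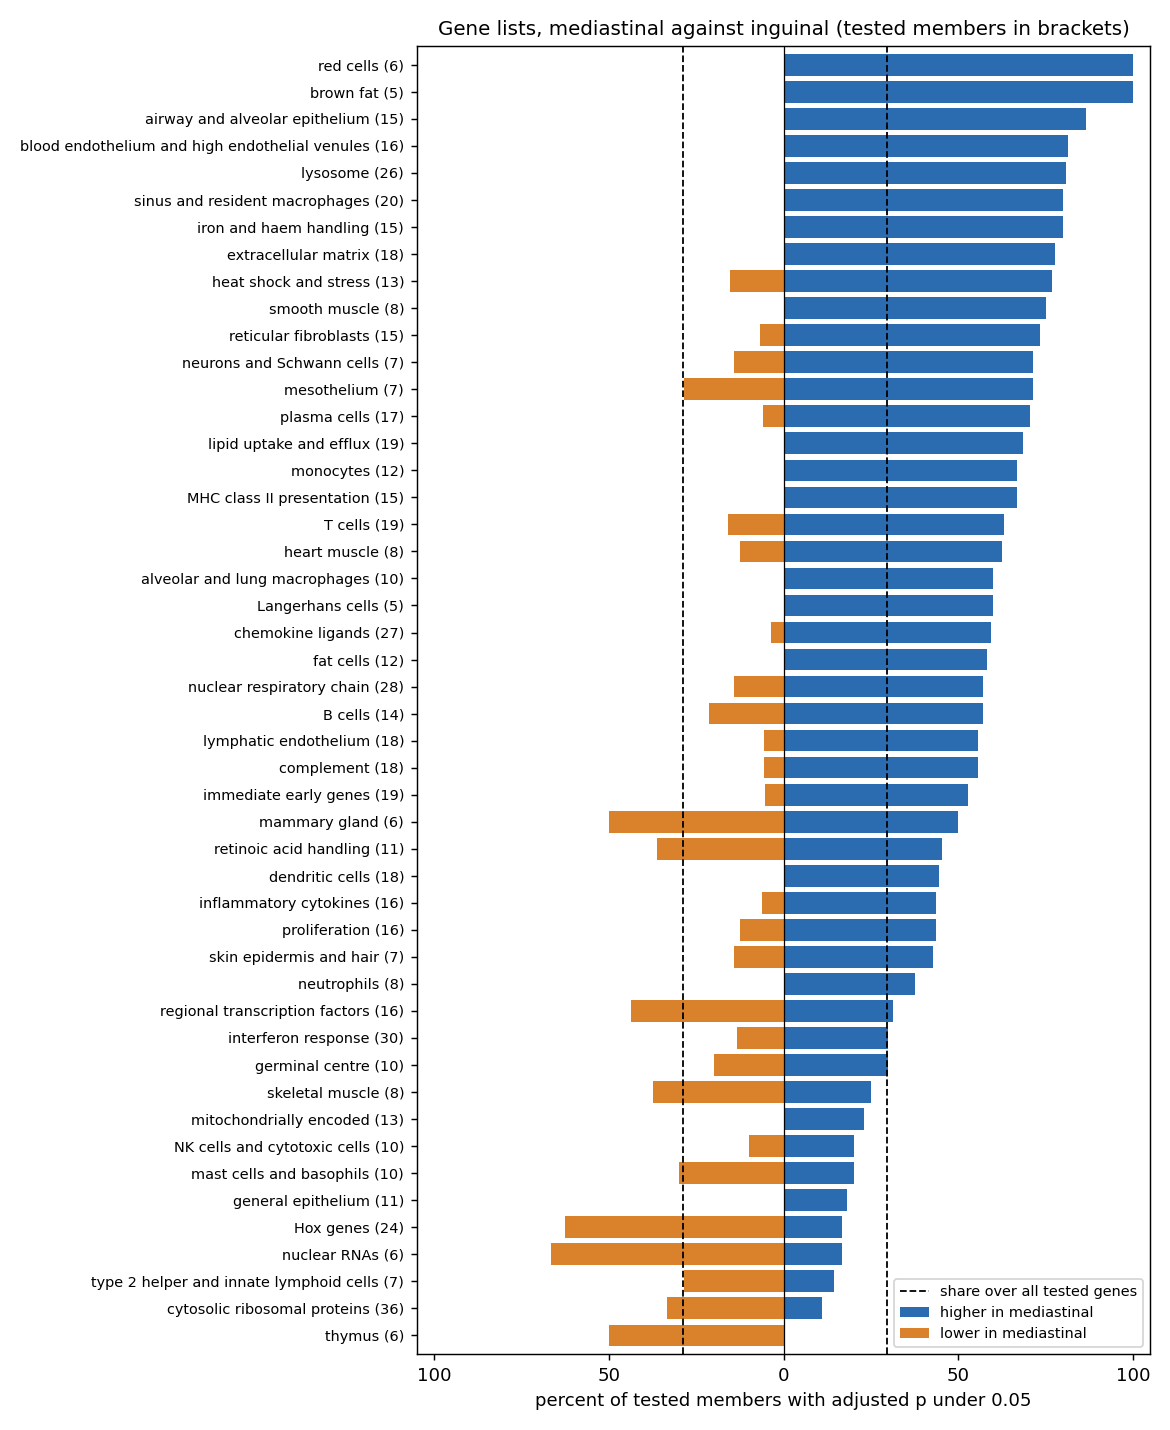
For each of the 48 lists with 5 or more tested genes, the bars give the percent of tested members that were higher (blue, right) or lower (orange, left) in the mediastinal node, with the number tested in brackets. Dashed lines mark the shares over all tested genes, 29.6% and 28.7%, and the Hox list lies on the lower side.

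Transcripts of some organs that lie beside the mediastinal node were higher in its libraries, and those of others were not. Of 6 tested thymus genes none rose and Psmb11, Aire and Ptcra fell, with a median of -1.27. Of 11 general epithelium genes, all tested, Wfdc2 and Cldn3 rose and none fell, with a median of 0.636. Of 18 airway and alveolar genes 15 were tested, 13 rose and none fell, with a median of 6.89, or 6.22 when genes without an inguinal count are set at their lower bound. Scgb1a1, the secretory protein of club cells, had 4.44, 4.36 and 0.565 CPM in the inguinal libraries and 748, 311 and 2029 CPM in the mediastinal ones. Mediastinal library 3 was the highest and library 2 the lowest, none overlapped the inguinal libraries, and the rise was 8.81 ± 1.001 (adjusted p = 7.94e-05). Scgb3a2, another airway secretoglobin, kept that order at 258, 94.0 and 606 CPM against 2.02, 1.31 and 0.126 CPM, a rise of 8.97 ± 1.005 (adjusted p = 5.47e-05). Bpifa1, an antimicrobial protein of the upper airway, had 3 inguinal counts in all against 26886 mediastinal ones, a ratio of 912 in CPM with a counting interval of 312 to 4420. Foxj1, which drives motile cilia, had 0, 0 and 0.0628 CPM against 3.46, 0.873 and 6.95 CPM. Among genes of the alveolar side, the surfactant protein gene Sftpd rose by 2.96 ± 0.62, the water channel Aqp5 by 1.95 ± 0.57 and the protease Napsa by 0.76 ± 0.28. Both Aqp5 and Napsa lost their calls when mediastinal library 3 or inguinal library 2 was left out. Sftpa1, surfactant protein A, rose too, with no inguinal count and 3.30, 2.70 and 8.92 CPM in the mediastinal libraries. Sftpc and Sftpb were too low to test, with 11, 8 and 55 and with 6, 2 and 14 counts in the mediastinal libraries. Ager, of type I alveolar cells, did not pass (0.35 ± 0.36). The summed level of the list was 52.5 to 65.0 CPM in the inguinal node and 1464, 686.5 and 3963 CPM in mediastinal libraries 1, 2 and 3. Against inguinal library 3 alone the median over 16 tested airway genes was 7.32. There 5 of them rose, in a test whose spread comes from the mediastinal libraries alone.

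Brown fat genes were also present, and more evenly. All 5 rose, with a median of 5.58. Ucp1, the uncoupling protein that makes heat, had 7.26, 6.11 and 2.20 CPM in the inguinal libraries and 241, 198 and 214 CPM in the mediastinal ones. The mediastinal libraries lay within a narrow range, far above the inguinal ones, and the rise was 5.58 ± 0.46 (adjusted p = 9.17e-06). Cidea, a lipid droplet protein, had 3.63, 3.05 and 3.71 CPM against 211, 122 and 174 CPM, a rise of 5.58 ± 0.38 (adjusted p = 3.09e-06). General fat genes did not move alike: 7 of 12 rose, among them Adipoq (2.31 ± 0.35), beside 29.6% of all genes. Fabp4, Cfd, Lpl, Retn and Plin1 did not pass, and with scaling on coding genes alone 4 rose and 2 fell. Heart muscle genes rose in 5 of 8 tested and Ryr2 fell. Myh6, the atrial and adult ventricular myosin heavy chain of mice, had 0, 1.75 and 0.251 CPM against 19.1, 74.9 and 67.7 CPM, a rise of 6.96 ± 0.79 (adjusted p = 2.94e-05). Here mediastinal libraries 2 and 3 were high and library 1 low. Of 7 mesothelium genes, which coat the pleura, Muc16, Gpm6a, Upk3b, Upk1b and Lrrn4 rose and Msln and Wt1 fell. Skin genes were few: of 7 tested, Krt15, Krt5 and Dmkn rose, Sbsn fell, and Krt14 and Krt1 were too low to test. The basal keratins Krt15 and Krt5 were high where airway genes were, with 49.4, 10.9 and 93.6 CPM of Krt15 in the mediastinal libraries.

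**Figure D4:**
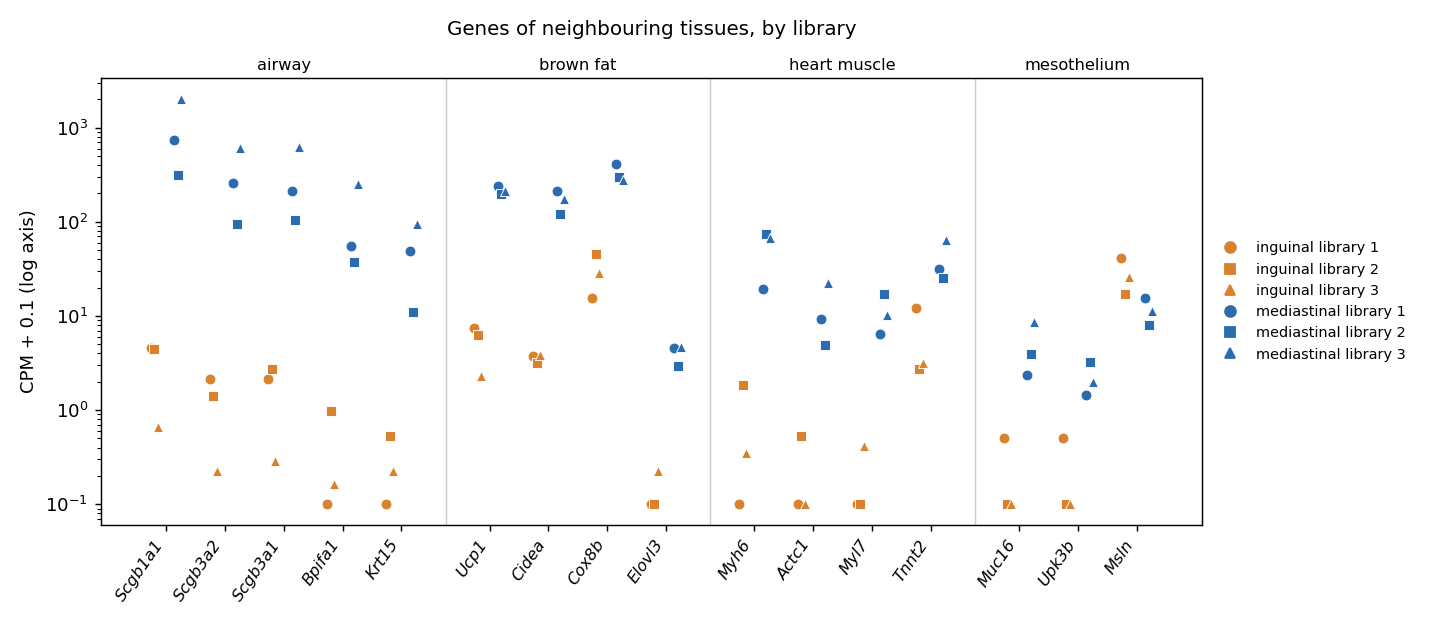
CPM plus 0.1 on a log axis for genes of airway, brown fat, heart muscle and mesothelium in each inguinal (orange) and mediastinal (blue) library, with the symbol giving the library number. Airway genes follow one order over the mediastinal libraries, 3 above 1 above 2, the brown fat genes lie close together, and Msln is the one gene drawn with inguinal points above the mediastinal ones.

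Most tested genes of the Hox clusters, which mark position along the body, were lower in the mediastinal node. Of 39 Hox genes 24 were tested and 15 fell, beside 28.7% of all genes, while 4 rose, beside 29.6%. Their median was -2.20. Hoxc8, a gene of the thoracic trunk, had 61.3, 104 and 66.3 CPM in the inguinal libraries and 0.274, 0.183 and 0.201 CPM in the mediastinal ones. The nodes lay far apart, and Hoxc8 fell by 8.43 ± 0.44 (adjusted p = 3.61e-07). The isotype control from jejunal node held 67.4 CPM, as much as the inguinal libraries. Hoxc9 had 35.1, 61.5 and 25.4 CPM against 0.836, 0.244 and 0.330 CPM, fell by 6.39 ± 0.54 (adjusted p = 1.13e-05), and was at 29 CPM in the isotype control. Hoxc10, a gene of the lumbar and hindlimb region, had 2.02, 2.62 and 3.08 CPM in the inguinal libraries and no count in any mediastinal library, at least 197-fold lower against a floor of 3 counts over the group. Its isotype level was 0.200 CPM. Hoxb7, at 4.04, 10.5 and 11.1 CPM against 1.63, 0.994 and 0.861 CPM, fell by 2.91 ± 0.45 (adjusted p = 1.66e-04) and had 0.200 CPM in the isotype control. Hoxc6, Hoxd11, Hoxa7, Hoxa9, Hoxb1, Hoxb3, Hoxb4, Hoxb5, Hoxb8, Hoxb9 and Hoxd4 fell as well. Hoxd11 and Hoxb4 had isotype levels of 14.2 and 193 CPM, above every inguinal library. Hoxa5, a gene of the lung and neck region, rose, from 2.42, 6.11 and 4.14 CPM to 17.1, 10.3 and 12.1 CPM, by 1.65 ± 0.39 (adjusted p = 0.00268). Hoxa4 and Hoxa2 had 2 inguinal counts each and depth-scaled ratios of 19.3 (counting interval 5.31 to 160) and 6.26 (1.70 to 52.2). Hoxd9 rose by 0.97 ± 0.38. With scaling on coding genes alone 2 Hox genes rose, without Hoxa2 and Hoxd9.

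Of 16 tested regional factors outside the Hox clusters 5 rose and 7 fell, beside 29.6% and 28.7% of all genes. Meox1, a homeobox factor that shapes somites, had 1.21, 0 and 1.51 CPM in the inguinal and 9.59, 11.3 and 11.8 CPM in the mediastinal libraries, a rise of 3.23 ± 0.50 (adjusted p = 1.63e-04). Its relative Meox2 rose by 1.34 ± 0.41, and Tbx1, Tbx2 and Osr1 rose. With scaling on coding genes alone 1 of the 5 rises passed, that of Meox1. Tbx15, a factor of trunk dermis and white fat, had 7.26, 6.55 and 9.80 CPM against 0.822, 0.446 and 0.720 CPM, without overlap, and fell by 3.59 ± 0.42 (adjusted p = 3.14e-05). En1, known from the ventral limb and trunk skin, fell by 6.32 ± 0.72 from 2.82, 3.05 and 1.51 CPM. The isotype control had 0.800 CPM of each of Tbx15 and En1. Tbx5, Tbx18 and Lmx1b fell too, with isotype levels of 43.6, 34.0 and 3.80 CPM that exceeded 18.2, 26.6 and 2.42 CPM in inguinal library 1. Gata4 and Wt1 were the other factors that fell.

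**Figure D5:**
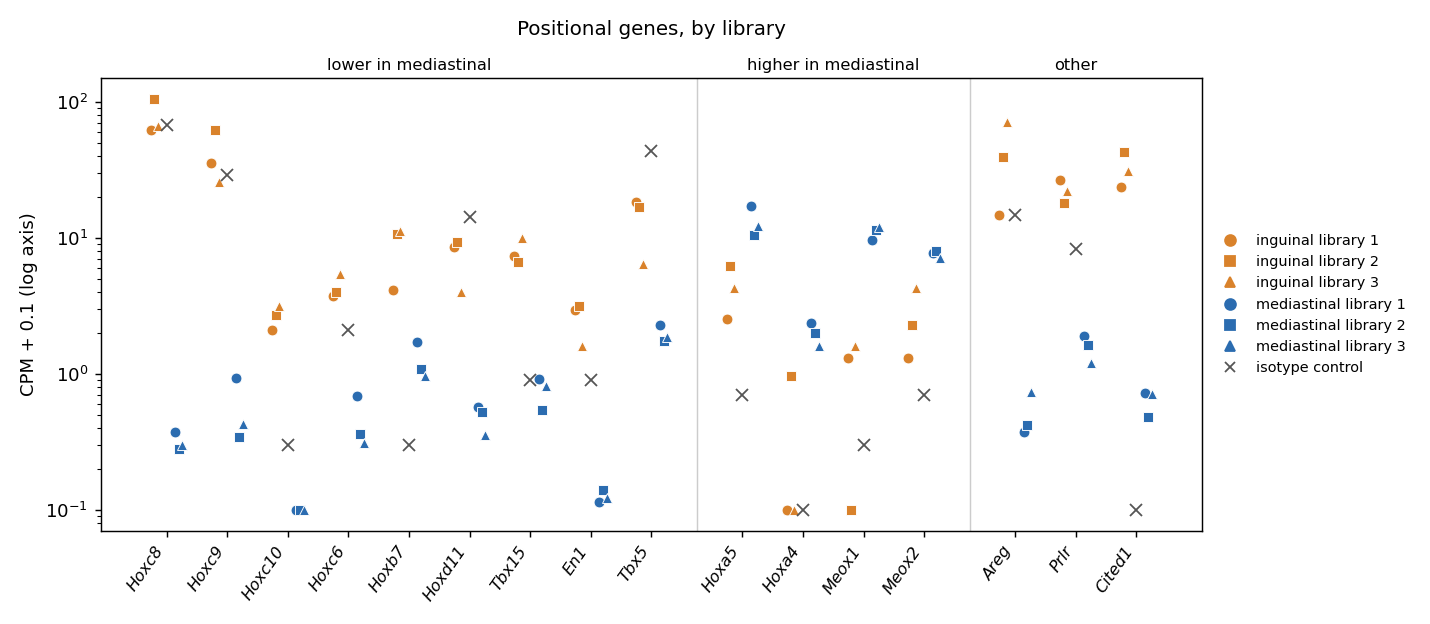
CPM plus 0.1 on a log axis for positional genes and for Areg, Prlr and Cited1 in each inguinal (orange), mediastinal (blue) and isotype control (cross) library. The cross lies among or above the inguinal points for Hoxc8, Hoxc9, Hoxd11, Tbx5 and Areg and below them for the other genes in the left panel and for Prlr and Cited1.

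Genes of the mammary gland, which lies beside the inguinal node, were divided between the nodes. Areg, an EGF family growth factor of the mammary duct and of several immune cells, had 14.5, 39.3 and 71.0 CPM in the inguinal and 0.274, 0.325 and 0.637 CPM in the mediastinal libraries, and fell by 6.65 ± 0.59 (adjusted p = 1.78e-05). Its isotype level of 14.6 CPM was about that of inguinal library 1. Cited1, a transcriptional coregulator, had 23.4, 42.3 and 30.8 CPM against 0.620, 0.386 and 0.613 CPM, fell by 5.87 ± 0.40 (adjusted p = 3.09e-06), and had no count in the isotype control. Prlr, the prolactin receptor, had 26.6, 17.9 and 21.9 CPM against 1.80, 1.52 and 1.10 CPM and fell by 3.91 ± 0.35 (adjusted p = 1.93e-05). Of 6 tested mammary genes Areg, Prlr and Csn3 fell, beside 28.7% of all genes, and Mfge8, Ltf and Csn2 rose, beside 29.6%. Their median was -0.321, and Cited1 is not in this list. The summed level of the list was 118.2 to 258.4 CPM in the inguinal node and 470.1 to 633.1 CPM in the mediastinal node. Of 10 tested mast cell and basophil genes 3 fell, beside 28.7% of all genes, 2 rose, and 5 did not pass. The connective tissue mast cell protease Mcpt4 had 13.7, 18.3 and 20.9 CPM against 7.15, 7.63 and 5.65 CPM and fell by 1.39 ± 0.31 (adjusted p = 0.00213), Tpsb2 fell by 1.10 ± 0.38 but by 0.26 without inguinal library 3 (adjusted p = 0.565), and Cd200r3, a receptor of basophils and mast cells, fell by 2.08 ± 0.43. The mast cell proteases Cma1 and Cpa3 did not pass, at -0.79 ± 0.38 and -1.16 ± 0.83. Kit and Gata2 rose.

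By size of change, the 15 largest rises among genes with at least 10 CPM in the higher node and no overlap were Nme1nme2, Bpifa1, Scgb3a2, Scgb1a1, Adh7, Krt15, Scgb3a1, Bpifb1, Actc1, Reg3g, Myh6, Cyp2f2, Ltf, Cyp2a5 and Cnn1. Of these, 7 are in the airway and alveolar list. Nme1nme2 is a readthrough of Nme1 and Nme2, with no inguinal count and 96.6, 117 and 129 CPM in the mediastinal libraries, and since kallisto shares reads with both genes its level is uncertain. Nme1 and Nme2 themselves did not pass. The 15 largest falls were Fam177a2, Hoxc8, Areg, Hoxc9, Pou1f1, Cited1, Vwa5b2, Gria2, Mir9-2hg, Malat1, Uty, Nos1ap, Or52e5, Capn12 and Tsbp1. Pou1f1, a pituitary factor, had 613, 704 and 282 CPM in the inguinal and 13.9, 6.35 and 2.96 CPM in the mediastinal libraries, and 1183 CPM in the isotype control. Gria2, a glutamate receptor, had 144, 138 and 56.8 CPM against 4.89, 2.74 and 1.91 CPM, and 313 CPM in the isotype control. For both genes inguinal libraries 1 and 2 stood above library 3. Capn12 and Cited1 had isotype levels under 2 CPM, below every inguinal library.

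Protein synthesis and stress genes were mixed. Of 36 cytosolic ribosomal proteins 4 rose and 12 fell, beside 28.7% of all genes, with a median of -0.521. The number that fell was 22 with scaling on coding genes alone, 21 in thinned counts, 19 without inguinal library 1, 6 without inguinal library 2 and 0 in the model of all 36 libraries. Rplp2, of the ribosomal stalk, had 4674, 6940 and 4916 CPM against 1607, 1560 and 1258 CPM and fell by 1.90 ± 0.28 (adjusted p = 1.27e-04). Rpl4 and Rps3 rose by 1.998 ± 0.329 and 1.72 ± 0.35. In the heat shock and stress list 10 of 13 rose, including Hspa8 (1.08 ± 0.32) and the endoplasmic reticulum chaperone Hspa5 (1.496 ± 0.286). The cytosolic chaperones Hsp90aa1 and Hsp90ab1 fell by 1.91 ± 0.31 and 1.79 ± 0.31, and the isotype control held 5200 and 4653 CPM of them. Of 11 tested genes of retinoic acid handling 5 rose and 4 fell, beside 29.6% and 28.7% of all genes. With scaling on coding genes alone 4 rose and 4 fell. Aldh1a1, which makes retinoic acid, had 1.61, 0.873 and 0.628 CPM against 21.2, 9.82 and 77.8 CPM and rose by 5.41 ± 0.83 (adjusted p = 1.95e-04), in the library order of the airway genes. Aldh1a2 had 2 inguinal counts against 880, a depth-scaled ratio of 44.8 with a counting interval of 12.4 to 370, while Aldh1a3 and Cyp26b1 fell.

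To place both nodes, each was set against the mean of the ileal, ceco-colonic, super cervical and deep cervical nodes, the other lymph node sites whose 3 libraries all exceeded 1000000 counts, in one model of 18 libraries and 17619 genes. Against these 46.3% of genes were called for the mediastinal node, 23.9% higher and 22.4% lower, and 12.2% for the inguinal node, 8.59% higher and 3.6% lower. The inguinal count of 2147 became 169 without inguinal library 1, 600 without library 2 and 3521 without library 3. The mediastinal count of 8150 became 4900 without mediastinal library 2 and 4292 without library 3. Both contrasts share the 12 comparison libraries, so their values are only set side by side. Scgb1a1 was 9.89 ± 0.55 higher in the mediastinal node (adjusted p = 9.57e-09) and 1.22 ± 0.81 higher in the inguinal node (adjusted p = 0.304). Ucp1 was 6.90 ± 0.48 higher in the mediastinal node, yet the deep cervical node had 327 ± 296 CPM (SD, n = 3). The deep cervical node also held 661 ± 1140 CPM of Myh6 and 102 ± 78.1 CPM of Cited1. Of the airway genes, it held 136 ± 217 CPM of Scgb3a1 and 25.7 ± 44 CPM of Bpifb1. Its levels of Scgb1a1, Scgb3a2 and Bpifa1 were 1.12 ± 0.654, 2.60 ± 2.13 and 0.832 ± 0.61 CPM. Hoxc8 differed by -5.42 ± 0.44 in the mediastinal node and by 3.04 ± 0.28 in the inguinal node. Its mean was 72.5 ± 22.0 CPM in the ileal, 104 ± 27.2 CPM in the ceco-colonic, 2.88 ± 1.32 CPM in the super cervical and 0.498 ± 0.513 CPM in the deep cervical node (SD, n = 3 each). Hoxc8 was thus low in the mediastinal and both cervical nodes and high in the other 3.

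For macrophage and stromal genes both contrasts are likewise set side by side, and which node a difference came from was not tested. The inguinal values of Cd74, Lyz2 and Marco given here passed when low counts were not filtered. Cd74 was 3.37 ± 0.42 higher in the mediastinal node than the other sites (adjusted p = 7.12e-05) and -0.74 ± 0.52 in the inguinal node (adjusted p = 0.324). Lyz2 was 2.64 ± 0.30 higher (adjusted p = 1.82e-05) and -0.80 ± 0.36 (adjusted p = 0.141), and Ccl21a 3.01 ± 0.39 higher (adjusted p = 8.48e-05) and -0.59 ± 0.47 (adjusted p = 0.389). Jchain differed by 1.34 ± 0.34 in the mediastinal node and by -3.75 ± 0.50 in the inguinal node. For Igha the mediastinal node did not pass (-0.93 ± 0.97, adjusted p = 0.446), the inguinal node differed by -6.17 ± 1.42, and the ileal node had 1898 ± 331 CPM (SD, n = 3). Without inguinal library 1 or 2 this inguinal value of Igha no longer passed. Areg was 5.70 ± 0.59 higher in the inguinal node (adjusted p = 6.37e-05) and -0.98 ± 0.79 in the mediastinal node (adjusted p = 0.310). Marco did not pass in either contrast (0.12 ± 0.33 and -0.88 ± 0.36), and the ileal node had the most, 7044 ± 752 CPM.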

How the data were processed

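RNA on tagged ribosomes was measured by sequencing polyadenylated RNA, in 3 mediastinal and 3 inguinal libraries. The deposited table holds estimated counts per gene, not scaled between libraries. kallisto, limma and edgeR and the builds GRCm39 and mm10 appear in the submitters' processing notes with no version or role, so the build is ambiguous; the step from transcripts to genes and the use of strand are not given in the sources used here, and counts of paralogs, overlapping and antisense genes are uncertain. Of the values in these libraries 47.3% were not whole, and all were rounded to whole counts. Low genes were removed by edgeR's filterByExpr, set to at least 10 counts per library and 15 overall. The main test was edgeR 4.0.16 (R 4.3.3), with TMM scaling, a robust quasi-likelihood fit to the 6 libraries, Benjamini-Hochberg adjustment and a threshold of 0.05. Alternatives used DESeq2 1.42.0 and limma 3.58.1 (voom), other scaling and filters, thinned counts, libraries left out and larger models. Each SE is the absolute log2 fold change divided by the square root of F. CPM are scaled by the TMM-adjusted totals of the model, and those of the isotype control by its plain total. Counting intervals are exact at 95%. They and the floors describe counting error alone, and reads copied by PCR are not separate molecules. In the comparison with inguinal library 3 alone, that library was assumed to vary like the mediastinal ones. All replicate pairs were distinct libraries. The rule for naming genes took 6 macrophage and tag genes, the 15 largest changes each way and the most abundant called members of 53 lists. Context from other sites, the promoter motifs and the receptor genes were added to it. The comparison, its lists and this rule were chosen with earlier results of these data known. One member of the macrophage list, counted in its totals, is not reported here by name. Promoters are RefSeq sequences of GRCm38.p6.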

Additional observations from a re-analysis of the deposited data

How the results depend on the processing

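Counts of called genes between the nodes moved by over 1.5 times under 3 alternatives. Thinning every library to the smallest total left 7590 called genes, 3759 of them higher, among fewer genes tested. A model of all 36 libraries called 6195, 2751 higher and 3444 lower, and the cause was not tested. Scaling and testing coding genes other than odour receptors alone, chosen after seeing the data, called 7317, 3685 higher and 3632 lower, among fewer genes. Leaving out 1 library gave 9074 to 12282 calls. Deviations from the node means correlated by 0.221, 0.0386 and 0.189 between libraries of the same replicate number. Between libraries of unlike number they correlated by -0.279 to 0.113. Whether replicate numbers pair the libraries is not settled by these values. The main fit did not pair them, and the replicate block called 11907.

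Against the 4 other sites, thinning left 5115 calls for the mediastinal node, and leaving out 1 library gave 4292 (mediastinal 3) to 9184 (super cervical 3), with 4900 without mediastinal 2. For the inguinal node DESeq2 called 3614, and leaving out 1 library gave 169 (inguinal 1) to 3587 (deep cervical 1), with 600 without inguinal 2, 3521 without inguinal 3, 1268 without ileal 2 and 1365 without deep cervical 2. The causes were not tested.

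For the 186 named genes, 3258 values under alternatives held 174 lost calls, 42 gained and 0 changes of sign. Calls of Tbx1, Tbx2, Prdm1, Hoxd9, Aqp5, Napsa, Il7, Ebf1, Tpsb2, Cd2, Osr1 and Ear2 were lost under 6 or more alternatives each, and that of Siglec1 without inguinal library 3. Depth limits low genes in inguinal libraries 1 and 2, where 3 counts are over 1 CPM.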
